A study of Mus musculus with 2 samples.

Results

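The data described here are the reads of the 10 mature arms that come from the miR-99/100 and miR-125 hairpins of 3 mouse polycistrons, in exosomes of CT26 cells. The members were taken by name from the deposited lists, which hold 1915 mature miRNAs, and the let-7 arms of the same polycistrons were left out. Small RNA was sequenced from 1 library of exosomes of parental CT26 cells and 1 library of exosomes of CT26 sphere-derived cancer stem cells (SDCSCs). CT26 is an established colon carcinoma line of the Balb/C strain, and both conditions carry its genotype. The SDCSCs were spheroids expanded for 2 weeks in serum-free DMEM/F12 with the growth factors bFGF and EGF at 10 ng/ml each and with N2 supplements. The parental line was grown in DMEM with 10% fetal bovine serum, and medium with 10% exosome-depleted serum was used for collection. Medium, with or without serum, and cell state therefore cannot be told apart. Exosomes were pelleted by ultracentrifugation, and RNA of 18 to 40 nucleotides was taken into the libraries. The comparison asks how the small RNA cargo of the vesicles differs between the sphere-grown and the parental cells.

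A polycistron is a set of hairpins cut from one primary transcript. Each of the 3 polycistrons holds a miR-99 or miR-100 hairpin, a let-7 hairpin and a miR-125 hairpin, in this order. A hairpin gives a 5p and a 3p arm, of which usually one is loaded into Argonaute and kept while the other is degraded. A miRNA finds its targets mainly through its seed, bases 2 to 8. Members of the miR-99/100 family are known as regulators of the mTOR and IGF1R growth pathway, and miR-125 is the vertebrate counterpart of lin-4, the first miRNA described. The human host transcript of miR-100 and miR-125b is known from work on cetuximab resistance of colorectal cancer cells.

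All 10 members had a RefSeq mature sequence, on GRCm38.p6. The 5p arms and a pair of 3p arms are shown because the family comparisons rest on shared seeds and because the 3p arms tell the miR-125b loci apart. The seed is in capitals, and all sequences run 5′ to 3′.
mmu-miR-99a-5p: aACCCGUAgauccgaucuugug
mmu-miR-99b-5p: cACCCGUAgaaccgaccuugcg
mmu-miR-100-5p: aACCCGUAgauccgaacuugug
mmu-miR-125a-5p: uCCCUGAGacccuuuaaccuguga
mmu-miR-125b-5p: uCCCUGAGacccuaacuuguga
mmu-miR-125b-1-3p: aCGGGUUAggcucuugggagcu
mmu-miR-125b-2-3p: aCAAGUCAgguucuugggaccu

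The 3 members of the miR-99/100 family share the seed ACCCGUA. Counted from 1 at the 5′ end, miR-99a-5p differs from miR-100-5p by A16U alone, so reads with an error at that base could be counted to the wrong one. The difference between miR-100-5p and miR-99b-5p is larger, with A1C, U11A, A16C and U21C. Both miR-125 members share the seed CCCUGAG, and their sequences of 24 and 22 bases are identical over the first 13 and the last 5. The 5p arm of miR-125b is the same at both of its loci, whereas the 3p arms of Mir125b-1 and Mir125b-2 differ at 5 of 22 bases.

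In GRCm38, Mir100 (ENSMUSG00000093011.1) lies on chromosome 9, plus strand, from 41531425 to 41531504, in an intron of 3110039I08Rik, which RefSeq calls Mir100hg. It also overlaps an exon of the lincRNA Gm48742 on the opposite strand. Mir125b-1 (ENSMUSG00000093354.1) follows on the same strand from 41581926 to 41582002, in an intron of the same host and in an exon of the sense-intronic Gm28119. On chromosome 16, plus strand, Mir99a (ENSMUSG00000065530.1) runs from 77598936 to 77599000 and Mir125b-2 (ENSMUSG00000065472.1) from 77646273 to 77646343, both in introns of Mir99ahg. The tightest polycistron is on chromosome 17, plus strand. There, Mir99b (ENSMUSG00000065396.1) runs from 17830188 to 17830257 in an intron of Spaca6. Mir125a (ENSMUSG00000065479.2) runs from 17830812 to 17830879 and overlaps an exon of a Spaca6 transcript.

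The values were deposited as RPM, in which reads are scaled to a common sum over all entries. Every value above 0 was a whole multiple of what 1 read is worth, 27.31 RPM in the parental library and 217.77 RPM in the other, which gave back the reads. With the highest entry taken for each miRNA, the libraries held 32162 and 3964 reads, and all levels here are shares of these totals. The upper limit that 0 reads allow was set at 3 reads, which is 0.00933% of the parental and 0.0757% of the SDCSC total. Shares carry 95% Wilson intervals and ratios exact 95% intervals, and neither covers more than the counting error of reads. PCR copies were not collapsed to molecules, so for molecules the intervals may be too narrow and the p-values too small. Each condition has 1 library, so no difference has a replicate check. Of 8 blood-cell miRNAs, which mark blood or serum RNA, all 8 had reads in parental exosomes (2039 reads, 6.34%) and 1 had a read in SDCSC exosomes (1 read, 0.0252%). The near-identical miR-486a-5p and miR-486b-5p held 856 and 853 of the parental reads and may count the same molecules. The defining erythroid miR-451a had 88 and 0 reads. Of 3 muscle miRNAs, 2 were seen in the parental library alone, miR-1a-3p with 5 and 0 reads and miR-133a-3p with 120 and 0 (adjusted p = 1.74e-05, Fisher's exact test). The parental share of miR-1a-3p, 0.0155%, is under the 0.0757% that 0 SDCSC reads allow. In the blood list this also holds for miR-144-3p, miR-142a-3p, miR-223-3p and miR-150-5p. The liver miRNA miR-122-5p was at 0 in both. Their part in the differences below was not tested. Of 8 miRNAs that mark intestinal epithelium, 3 were seen in parental exosomes (55 reads in all) and 2 in SDCSC exosomes (2 reads in all), and miR-200a-3p, miR-200c-3p and miR-141-3p were at 0 in both.

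The 10 arms took 5047 reads, or 15.7% of the total (15.3 to 16.1%), in parental exosomes and 536 reads, or 13.5% (12.5 to 14.6%), in SDCSC exosomes. The sum was therefore a little lower in SDCSC exosomes, with a log2 ratio of -0.21 (-0.35 to -0.086), and the make-up differed more. Of the 10, 8 had a read in parental and 7 in SDCSC exosomes, and 2 were at 0 in both. A miRNA was called when its share differed at least 1.5-fold and Fisher's exact test (two-sided) gave an adjusted p under 0.05, where the adjustment (Benjamini-Hochberg) took in all 336 miRNAs seen in either library. Such a test is on reads of 1 library against another and says nothing of the spread within a condition. In SDCSC exosomes, 1 of the 8 members with a read was called higher, miR-100-5p, where 4.76% of all 336 miRNAs were. Another 3 were called lower, miR-99b-5p, miR-125a-5p and miR-125b-1-3p, where 9.23% of all were. Because the test reaches its threshold more easily at many reads, the 68 miRNAs with 50 or more reads in the 2 libraries together are the closer background. Of these, 14.7% were called higher and 45.6% lower, so that a call in either direction was common among miRNAs of this depth, and 1 and 3 of the 5 members in this set were called. The median log2 ratio of the 5 members was -2.01, against -0.81 for the 68. Setting miRNAs at 0 in one library to 3 reads could not move the latter, as all of these stay below it. Without scaling to library size, the split of calls over all miRNAs moved from 16 higher and 31 lower to 3 and 134. The unscaled calls used an exact binomial test (two-sided) in place of Fisher's.

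**Figure D1:**
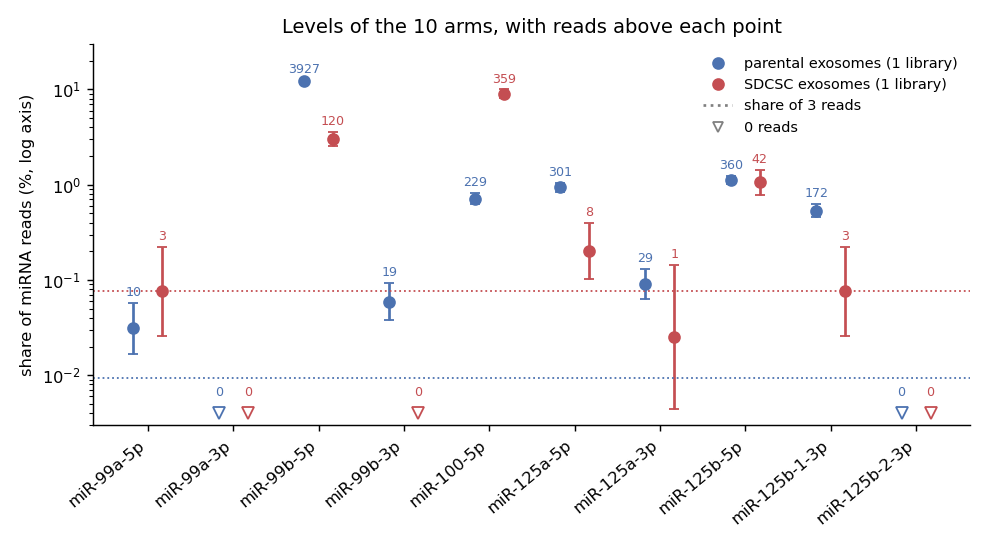
Share of miRNA reads (percent, log axis) of the 10 arms in the library of parental exosomes (blue) and of SDCSC exosomes (red), with the reads above each point. Bars are 95% Wilson intervals, dotted lines the share of 3 reads in each library, and open triangles arms with 0 reads; miR-99b-5p stands highest in parental exosomes and miR-100-5p in SDCSC exosomes.

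In parental exosomes mmu-miR-99b-5p was the most abundant of all miRNAs. It had 3927 reads (107251 RPM), a share of 12.2% (11.9 to 12.6%). In SDCSC exosomes it had 120 reads (26132 RPM), a share of 3.03% (2.54 to 3.61%), and ranked 10. The intervals are far apart. The log2 ratio of SDCSC to parental was -2.01 (-2.29 to -1.75), a 4.03-fold lower share, with adjusted p = 9.17e-86 in Fisher's exact test.

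The closely related mmu-miR-100-5p went the other way. It had 229 reads (6254 RPM) in parental exosomes, 0.712% (0.626 to 0.810%), where it ranked 26. In SDCSC exosomes it had 359 reads (78179 RPM), 9.06% (8.20 to 9.99%), and was second to miR-21a-5p alone. Its reads were thus more numerous in the library with 8.11 times fewer reads in all, and its direction was the same with and without scaling. On the log2 scale the ratio was 3.67 (3.43 to 3.91), a 12.7-fold higher share, with adjusted p = 5.07e-191 in Fisher's exact test.

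The third 5p arm of the family, mmu-miR-99a-5p, was rare, with 10 reads (0.0311%) in parental and 3 reads (0.0757%) in SDCSC exosomes. Its log2 ratio of 1.28 had an interval from -1.22 to 3.24, and a difference was not detectable at this depth (adjusted p = 0.61, Fisher's exact test).

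Within the family, parental exosomes held 4166 reads, of which 94.3% (93.5 to 94.9%) were miR-99b-5p, 5.50% (4.84 to 6.23%) miR-100-5p and 0.240% (0.130 to 0.441%) miR-99a-5p. SDCSC exosomes held 482 reads, of which 24.9% (21.2 to 28.9%) were miR-99b-5p, 74.5% (70.4 to 78.2%) miR-100-5p and 0.622% (0.212 to 1.81%) miR-99a-5p. The leading member of the family was therefore exchanged between the libraries. There were 0.0583 reads of miR-100-5p for each read of miR-99b-5p in parental exosomes and 2.99 in SDCSC exosomes, an odds ratio of 51.2 (39.8 to 66.1). Such a ratio is taken within a library and does not change with its scaling. With miR-99a-5p and miR-100-5p taken as 1, because of their near identity, it was 49.5. The share of the whole seed family moved little, from 13.0% (12.6 to 13.3%) to 12.2% (11.2 to 13.2%), a log2 ratio of -0.091 (-0.23 to 0.045).

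**Figure D2:**
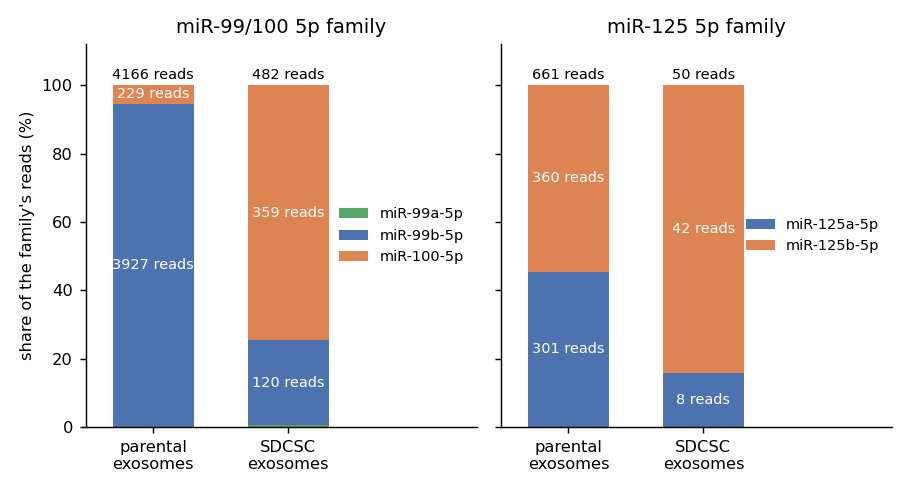
Make-up of the reads of the miR-99/100 family (left) and of the miR-125 family (right) by 5p arm, in percent of the family's reads, in the 1 library of each condition. Numbers are reads; miR-99b-5p makes up 94.3% of its family in parental and 24.9% in SDCSC exosomes, and miR-125b-5p 54.5% and 84.0% of its own.

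Of the miR-125 family, mmu-miR-125a-5p had 301 reads in parental exosomes, 0.936% (0.836 to 1.05%). In SDCSC exosomes it had 8 reads, 0.202% (0.102 to 0.398%). The intervals do not overlap, and the log2 ratio was -2.21 (-3.44 to -1.22) with adjusted p = 1.01e-06 in Fisher's exact test.

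In contrast, mmu-miR-125b-5p had almost the same share in both libraries. It had 360 reads in parental exosomes, 1.12% (1.01 to 1.24%), and 42 in SDCSC exosomes, 1.06% (0.785 to 1.43%). The log2 ratio was -0.079, with an interval from -0.58 to 0.38 and adjusted p = 1 in Fisher's exact test, and its sign changed with the scaling of the libraries.

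The make-up of the family shifted from miR-125a-5p toward miR-125b-5p. Parental exosomes held 661 reads of the pair, of which 54.5% (50.7 to 58.2%) were miR-125b-5p, and SDCSC exosomes held 50, of which 84.0% (71.5 to 91.7%) were. There were 1.20 reads of miR-125b-5p for each read of miR-125a-5p in parental and 5.25 in SDCSC exosomes, an odds ratio of 4.38 (1.99 to 11.0). Unlike the miR-99/100 family, the sum of the pair was lower in SDCSC exosomes, with 2.06% (1.91 to 2.22%) against 1.26% (0.958 to 1.66%) of the total. In both families the arm from chromosome 17 lost share within its family.

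Among other mouse miRNAs with these seeds, 3 share that of miR-125. Only miR-351-5p of these was seen, with 83 reads in parental exosomes and 0 in the others (adjusted p = 0.00116, Fisher's exact test). Its SDCSC share was 3.41-fold lower if set at 3 reads, and the exact interval of its log2 ratio ended at -1.44. The miR-10 arms, which have the related seed ACCCUGU, differed from each other as well. With 774 and 148 reads, miR-10a-5p had a log2 ratio of 0.63 (0.37 to 0.89; adjusted p = 2.96e-05, Fisher's exact test). With 3073 and 57 reads, miR-10b-5p had -2.73 (-3.14 to -2.35; adjusted p = 3.36e-91, Fisher's exact test).

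**Figure D3:**
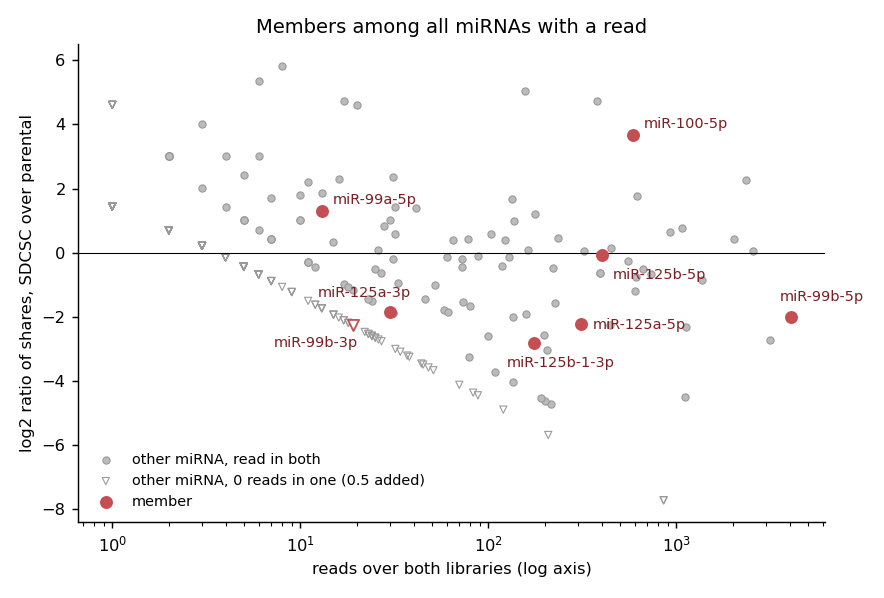
Log2 ratio of shares, SDCSC over parental exosomes, against the reads over both libraries (log axis) for the 336 miRNAs with a read, with the 8 members that had reads in red. Triangles mark miRNAs at 0 in one library, plotted with 0.5 reads added to both; miR-100-5p lies at 3.67, and miR-99b-5p, miR-125a-5p and miR-125b-1-3p between -2.01 and -2.82.

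Mature arms of one polycistron did not all keep their proportion to each other. On chromosome 17, miR-99b-5p and miR-125a-5p kept their proportion, with 13.0 reads of miR-99b-5p for each read of miR-125a-5p in parental and 15.0 in SDCSC exosomes. The odds ratio was 1.15, with an interval from 0.558 to 2.75 that is limited by the 8 reads of miR-125a-5p. The hairpin between them gave another picture. With 87 and 16 reads, let-7e-5p had a log2 ratio of 0.58 (-0.29 to 1.36; adjusted p = 0.58, Fisher's exact test). The reads of miR-99b-5p for each read of let-7e-5p fell from 45.1 to 7.50, an odds ratio of 0.166 (0.0933 to 0.313). As let-7e-5p differs from the more abundant let-7a-5p by U9G alone, its reads are uncertain.

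On chromosome 9, miR-100-5p and miR-125b-5p did not keep their proportion. There were 0.636 reads of miR-100-5p for each read of miR-125b-5p in parental and 8.55 in SDCSC exosomes, an odds ratio of 13.4 (9.28 to 19.7). Reads of miR-125b-5p can also come from Mir125b-2 on chromosome 16 and cannot be divided between the loci. The files list it at both precursors, with 360 and 356 reads in parental and 42 and 40 in SDCSC exosomes. The 3p arms are specific to a locus. Reads of mmu-miR-125b-1-3p, from chromosome 9, were found in both libraries, and mmu-miR-125b-2-3p, from chromosome 16, was at 0 in both, which allows shares of up to 0.00933% and 0.0757%. The 5p arm of Mir99a, the hairpin that shares the chromosome 16 transcript, was also near the limit of detection. There, miR-99a-5p and miR-125b-5p stood at 0.0278 and 0.0714 reads to 1, an odds ratio of 2.56 (0.436 to 10.5).

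The let-7 partner on chromosome 9, let-7a-5p, which can also come from another locus, was read 435 times in the parental and 182 times in the SDCSC library. Its log2 ratio was 1.76 (1.51 to 2.02; adjusted p = 2.05e-35, Fisher's exact test). The partner on chromosome 16, let-7c-5p, can also come from another locus. It had 287 and 37 reads and a log2 ratio of 0.065 (-0.47 to 0.56; adjusted p = 1, Fisher's exact test). Of the 6 let-7 arms of the polycistrons, 4 had a read, 1 of these was called higher and 0 were called lower. No read was found for let-7a-2-3p or let-7c-1-3p, and let-7e-3p had 2 and 0 reads. The 3p arms named for the other loci, let-7a-1-3p and let-7c-2-3p, had 6 and 0 reads each. How the reads of let-7a-5p and let-7c-5p divide between their loci was not tested.

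**Figure D4:**
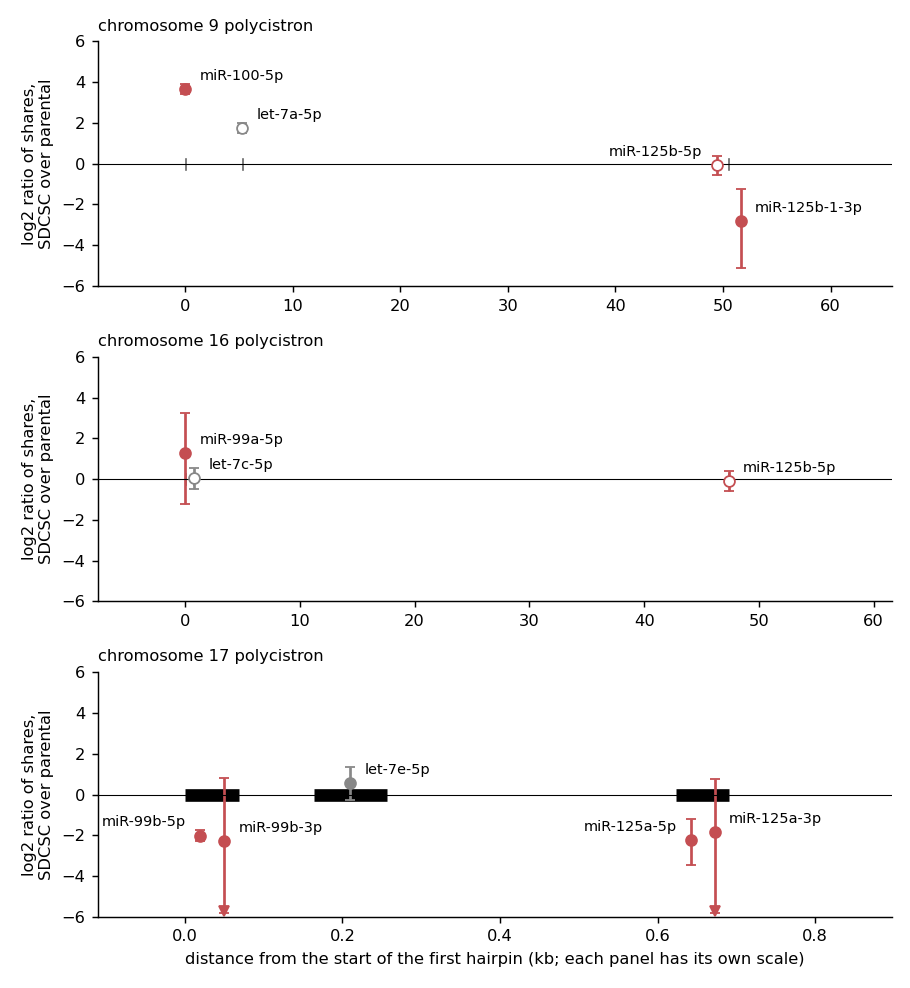
Log2 ratio of shares, SDCSC over parental exosomes, of the arms of each polycistron (members red, let-7 grey) against the distance of their hairpin from the start of the first hairpin, in kb. Bars are exact 95% intervals (arrows run beyond the axis), open symbols mark arms that 2 loci share, black bars or ticks on the 0 line hairpins where wide enough to show, and the arms of 1 hairpin are set apart sideways; on chromosome 9 the ratios run from 3.67 for miR-100-5p to -2.82 for miR-125b-1-3p.

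The 3p arm mmu-miR-125b-1-3p had 172 reads in parental exosomes, 0.535% (0.461 to 0.621%). In SDCSC exosomes it had 3 reads, 0.0757% (0.0257 to 0.222%). The log2 ratio was -2.82 (-5.11 to -1.25), with adjusted p = 5.41e-05 in Fisher's exact test. Its share fell, whereas that of miR-125b-5p, summed over both loci, did not move beyond counting error. The 5p level of the Mir125b-1 hairpin itself is not known in either library. That hairpin (GRCm38.p6, chr9:41581926-41582002, plus strand) is shown, with both arms in capitals, because only its 3p arm is specific to the locus.
Mir125b-1: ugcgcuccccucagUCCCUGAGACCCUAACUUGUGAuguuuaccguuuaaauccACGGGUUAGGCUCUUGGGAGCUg

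Relative to its own reads and all reads of miR-125b-5p, miR-125b-1-3p made up 172 of 532 reads in parental exosomes, 32.3% (28.5 to 36.4%). In SDCSC exosomes it made up 3 of 45 reads, 6.67% (2.29 to 17.9%). The odds of a 5p over a 3p read were 6.67 times higher in SDCSC exosomes (2.09 to 34.1). As part of the 5p reads may come from Mir125b-2, the share of the 3p arm at its own hairpin could be higher than these values. In parental exosomes 55 other hairpins had at least 30 reads over both arms, a depth that Mir125b-1 reached in both libraries. The share of their minor arm was a median of 2.25% (range 0 to 41.5%) and lay above that of miR-125b-1-3p in 4. In SDCSC exosomes there were 15 such hairpins, with a median of 0% (range 0 to 15.0%), and 2 lay above miR-125b-1-3p, those of miR-221 (6 of 40 reads) and miR-199a (5 of 34 reads).

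On chromosome 9, miR-100-5p and miR-125b-1-3p come from no other locus, so no second locus adds to their reads. As miR-125b-1-3p is a minor arm, the ratio takes in arm use as well as the levels of the hairpins, and these were not separated. There were 1.33 reads of miR-100-5p for each read of miR-125b-1-3p in parental and 120 in SDCSC exosomes, an odds ratio of 89.5 (29.5 to 444) that rests on 3 reads of miR-125b-1-3p in SDCSC exosomes and was 67.4 with 1 read added to each count.

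Together the 5 3p arms took 220 reads (0.684%) of the parental library and 4 (0.101%) of the other, and their summed log2 ratio was -2.76 (-4.65 to -1.38), most of it from miR-125b-1-3p. The other 3p arms were rarer. For mmu-miR-125a-3p, 29 reads (0.0902%) stood against 1 read (0.0252%), a log2 ratio of -1.84 with an interval from -7.19 to 0.75 (adjusted p = 0.75, Fisher's exact test). It made up 8.79% (6.19 to 12.3%) of the 330 reads of both arms in parental exosomes and 11.1% (1.99 to 43.5%) of 9 in SDCSC exosomes. At this depth no difference in arm use of Mir125a was detectable. For mmu-miR-99b-3p, 19 reads (0.0591%) stood against 0 (adjusted p = 0.76, Fisher's exact test). Its parental share is under the 0.0757% that 0 reads in SDCSC exosomes allow, and no fold is given. It made up 0.482% (0.308 to 0.751%) of the 3946 reads of its arms in parental exosomes and 0 of 120 in SDCSC exosomes (upper bound 3.10%), so the hairpin gave nearly 5p arms alone. No read of mmu-miR-99a-3p was found in either library, which allows the same limits as for miR-125b-2-3p. The 3p arm of Mir100, which is listed but not among the 10, was at 0 in both as well.

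**Figure D5:**
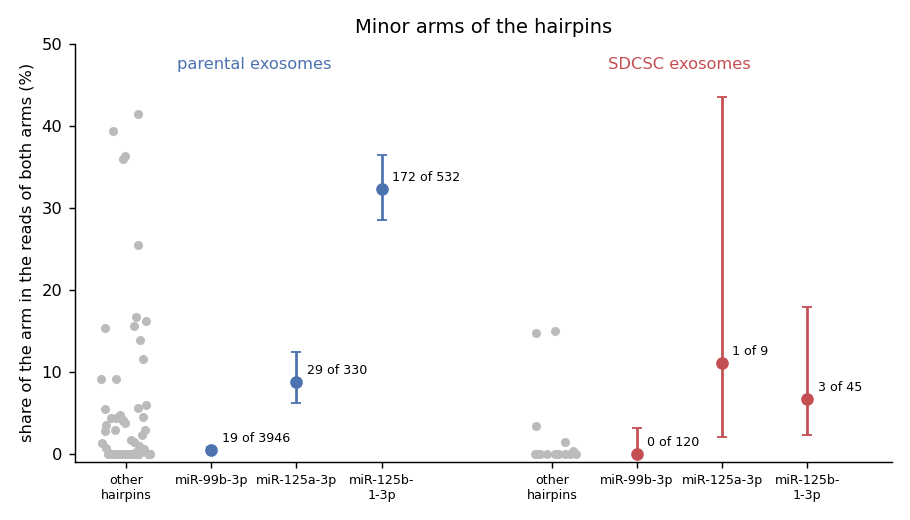
Share of the 3p arm in the reads of both arms (percent) for 3 hairpins, with 95% Wilson intervals and reads, in parental (blue) and SDCSC exosomes (red). Grey points are the minor arms of other hairpins with at least 30 reads in that library; miR-125b-1-3p stands at 32.3% in parental exosomes, where 4 grey points lie higher, and at 6.67% in SDCSC exosomes, where 2 do (its 5p reads may come from 2 loci).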

How the data were processed

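Small RNA of exosomes was sequenced by the authors in 1 library for each condition (TruSeq Small RNA kit, Illumina NextSeq). They clipped adapters with Trimmomatic and dropped reads under 18 nucleotides. The authors deposited RPM values for mature miRNAs at each precursor, and the submitters' processing notes name mm10. The counter and the miRBase release are not given in the sources used here.

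Reads were recovered as RPM over the value of 1 read (100% of values above 0 whole within 0.01 reads), totalling 36615 and 4592 over all entries. The highest entry of each name was used. Ratios had 0.5 reads added only where a library had 0. Fisher's exact test was run on all 336 miRNAs with a read. Odds ratios are conditional estimates with exact intervals. Markers, partners and seed relatives were listed by name or seed. The members and lists were chosen with earlier results of these data known. All members were named, as were the 3 miRNAs nearest in ratio to the 3 members with the most reads. Alternatives were other scalings (edgeR 4.0.16 for TMM factors only), sums of entries, added reads, fold limits and filters on reads. Scripts (Python 3.11.15, scipy 1.17.1) were tested on simulated data over many draws for recovered reads, interval coverage and false calls. The share of changed miRNAs that the test called varied between draws, and a first version of this check, which set a minimum for it in a single draw, passed or failed with the random seed and was replaced. Loci are from GENCODE (GRCm38) and sequences from RefSeq (GRCm38.p6).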

Additional observations from a re-analysis of the deposited data

How the results depend on the processing

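No paired analysis was possible because only 1 library stands for each condition. Relative to shares of the miRNA total, log2 ratios shifted by -0.059 with the median of ratios, -0.060 with TMM factors, -0.025 with the deposited RPM, -0.037 without the 10 members in the totals, 0.17 without the most abundant miRNA of each library and -3.02 without scaling. Without the 8 blood-cell miRNAs in the totals, an alternative chosen after seeing the data, they moved by -0.094. Calls under each of these scalings, and without scaling, came from an exact binomial test (two-sided) in place of Fisher's. Leaving out scaling, which ignores the 8.11 times larger parental total, gave -3.10 for miR-125b-5p, now past the threshold, and -1.74 for miR-99a-5p, and 6 members were called lower in place of 3, as were 134 of all 336 miRNAs in place of 31. The ratio of miR-125b-5p changed sign without the most abundant miRNA (0.088) and with 5 reads added to both libraries (0.063). With 5 reads added, miR-99b-3p came to 0.76 and miR-125a-3p to 0.52. In the 7 other settings with a test run again, 55 of 56 member ratios kept their direction and side of the threshold. For the sums of entries the test was again Fisher's exact test. These scalings shift all ratios alike, by 0.17 at most in size, so members far from the threshold had little room to change sides. Sums of entries gave the same member ratios as the deposited RPM, except for miR-125b-5p. With 1 or 5 reads added, the test was not run again and 13 of 16 kept their direction. Over these 9 settings, miR-100-5p ranged from 3.57 to 3.84, miR-99b-5p from -2.11 to -1.84, miR-125a-5p from -2.31 to -1.54 and miR-125b-1-3p from -2.92 to -1.45. Other fold limits and filters left 1 member called higher and 3 lower. The 9 odds ratios, which include 0.77 for miR-125a-5p to miR-125a-3p, stayed inside their exact intervals in all 20 alternatives run. These were sums of entries, 1 read added and miR-99a-5p taken with miR-100-5p. Summing could change only the odds ratios with miR-125b-5p, because the other arms in them have a single entry. For odds ratios between arms of different hairpins the added read was chosen after seeing the data, as was the minimum of 30 reads for other hairpins. Precision for the rarer arms is set by the 3964 reads on the SDCSC side.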

Other observations

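Over these 2 libraries, likeness to a member is only a likeness of 1 ratio, and it was read among miRNAs with 50 or more reads in all. Nearest to miR-99b-5p were miR-30c-5p, with 131 and 4 reads and a log2 ratio 0.0011 away, miR-130a-3p, with 153 and 5 reads and 0.097 away, and miR-484, with 59 and 2 reads and 0.15 away. Nearest to miR-125b-5p were miR-320-3p, miR-30e-5p and miR-181b-5p, with log2 ratios between -0.11 and -0.15. No miRNA came as close to miR-100-5p, the nearest being miR-222-3p, with 88 and 288 reads and 1.06 away, miR-92b-3p at 1.36 and miR-21a-5p at 1.41.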
